A study of Mus musculus with 4 samples.

Results

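The cells described here are the few barcodes in a T cell sort that carried transcripts of dendritic cells, the antigen-presenting cells that prime T cells in lymph nodes. They were chosen from single-cell RNA counts of 4 libraries by a fixed gate on unique molecular identifiers (UMIs, one for each captured RNA molecule). A gated cell had 300 or more genes, with mitochondrial UMIs at 10% or below. It also had at least 3 UMIs of the MHC class II genes H2-Aa, H2-Ab1 and H2-Eb1 together, at least 2 UMIs of the protease inhibitor gene Cst3, and none of the B cell genes Cd79a and Ms4a1. The gate took 90 of 48578 kept barcodes, or 0.185% (exact 95% Clopper-Pearson interval 0.149 to 0.228%). The values that chose the cells are given as a description and carry no test.

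Mice bearing MC38-OVA tumours, a colon carcinoma line made to express ovalbumin, gave draining lymph nodes from which live T cells were sorted, and the libraries were made with a 5' droplet kit. KO-DOX cells came from mice labelled PD-L1 knockout and given doxorubicin, and KO-CTRL cells from mice of that genotype in the control treatment. WT-DOX cells came from mice labelled with the control genotype and given doxorubicin, and WT-CTRL cells from mice with the control genotype and control treatment. The knockout is described as conditional in dendritic cells. Every group bore the tumour. Each group was 1 library, so no difference between groups has a replicate check. The number of mice behind a library, the dose, the time of sampling, the Cre driver and the deleted exons were not given in the sources used here.

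Conventional dendritic cells of a lymph node fall into resident cells, which arrive from the blood, and migratory cells, which come from tissue through the lymph. Migratory and mature cells switch on Ccr7, the receptor that guides them into the node, and Fscn1, which bundles actin in their long processes. Type 1 cells, marked by Xcr1 and Clec9a, present antigen from dead cells to CD8 T cells. Type 2 cells are marked by Sirpa, Cd209a, Mgl2 and Clec10a. Cd274 encodes PD-L1, the ligand with which dendritic cells restrain T cells through PD-1.

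The libraries held 37754389 UMIs (KO-DOX), 47081849 (KO-CTRL), 42987683 (WT-DOX) and 46300824 (WT-CTRL), with medians of 2985 to 3067 UMIs per kept cell. The gated cells were much deeper than the cells around them, with a pooled median of 15226 UMIs against 3022 over all kept cells. In all, 1283 cell barcodes occurred in more than 1 library, and no gated cell shared its barcode with another gated cell. The WT-DOX library stood apart in the zinc finger gene Zbed5, which had UMIs in 49.1% of its kept cells against 0.301 to 0.357% in the other 3 libraries.

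The gate gave 28 cells in KO-DOX, 17 in KO-CTRL, 22 in WT-DOX and 23 in WT-CTRL. These were 0.270%, 0.131%, 0.177% and 0.179% of the kept cells of those libraries. The exact intervals of the 4 shares overlapped, from 0.0765% at the lowest bound (KO-CTRL) to 0.390% at the highest (KO-DOX). A sort for T cells sets how many dendritic cells come through, so these shares do not measure their number in the node. Another 17 cells that met the other limits held a B cell gene and were left out. Just outside the gate lay 17 kept barcodes with enough Cst3 but 2 class II UMIs, and 15 with enough class II but 1 Cst3 UMI. Another 26 with enough class II had no Cst3 UMI.

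The label of dendritic cells held for fewer than the gate's full number. Of the 90 cells, 50 also carried T cell transcripts, taken here as 3 or more UMIs of Cd3e, Cd3d, Cd3g and Trac, which encode parts of the T cell receptor complex. That was 55.6% of the gate (44.7 to 66.0%). No cell lay at the limit: 33 cells had 0 such UMIs, 5 had 1, 2 had 2, none had 3, and the rest had 4 to 64. The remaining 40 cells are called cells without T cell transcripts. Their level of Cd74, the class II invariant chain, was 21289 counts per 1000000 UMIs (CPM), against 2398 CPM in the 50 cells with T cell transcripts and 40.0 CPM in T cells. T cells here means the 35906 kept cells with at least 2 of those T cell UMIs and no UMI of a gate gene. CPM values are UMIs summed over a set of cells, divided by that set's total.

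**Figure D1:**
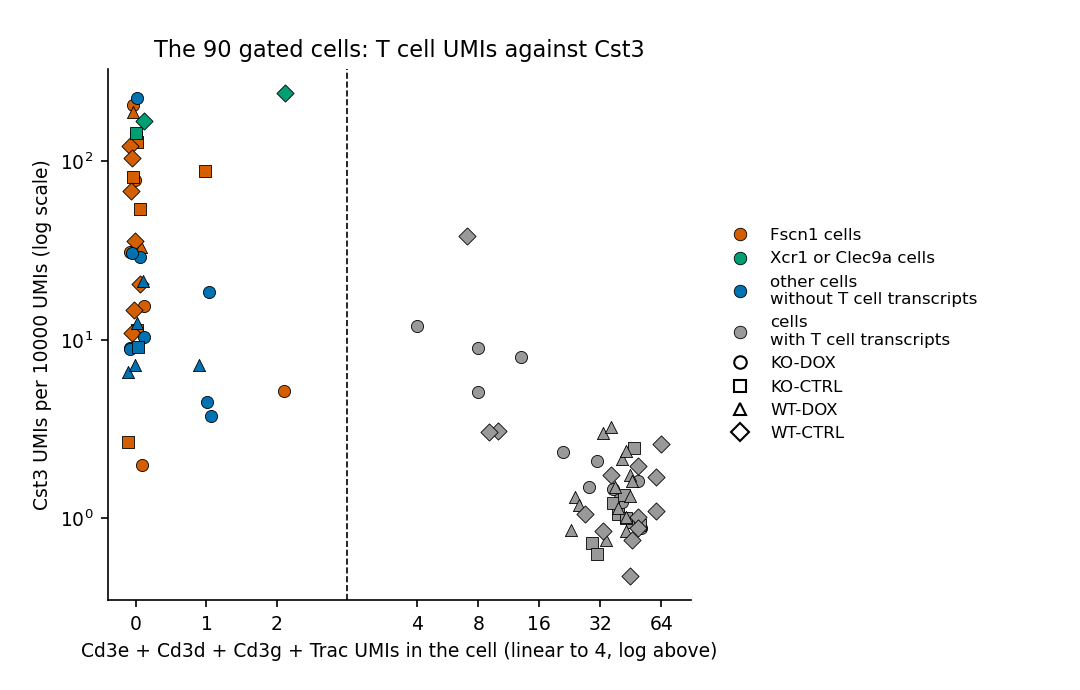
Each point is 1 of the 90 gated cells, placed by its summed UMIs of Cd3e, Cd3d, Cd3g and Trac (x axis) and its Cst3 UMIs per 10000 UMIs (y axis, log scale); colour gives the class of cell and shape the library, and the dashed line is the limit of 3 UMIs. The 50 cells to the right of the line have at most 37.95 Cst3 UMIs per 10000, and those to the left reach 241.

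The 50 cells with T cell transcripts were deep, cycling and mostly CD8. Their median was 27936 UMIs, against 7534 for the 40 cells without. At least 3 UMIs of Cd8a and Cd8b1 were found in 42 of the 50, and 3 cells had at least 3 UMIs of Cd4. UMIs of Mki67 or Top2a, genes of dividing cells, were found in 44. The 17 T cell genes on the marker list stood at a median of 52.7% of their T cell level in these cells (range 7.05 to 129%), and at 2.11% in the 40 cells without T cell transcripts (0 to 36.5%). The 26 dendritic and migratory markers that the gate did not use stood at a median of 5.65% of their level in the 40 cells (0 to 14.2%). Their Cst3 counts were low, with 2 to 30 UMIs and a median of 4.

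A wide gap in the T cell UMIs split the 50 cells again, a division made after the values were seen. In 43 cells there were 21 to 64 T cell UMIs and a median of 30980 UMIs in all. These cells had 3 to 119 class II UMIs with a median of 13, and at most 10 Cst3 UMIs. They had no UMI of Tyrobp, a signalling adaptor of myeloid cells, or of Flt3, a growth factor receptor of dendritic cells, and 5 UMIs of Fscn1 among 1452662. Cd74 stood at 1812 CPM in them and H2-Aa, a class II alpha chain, at 271 CPM. In 287 CD8 T cells of at least 15000 UMIs outside the gate, Cd74 was at 184 CPM and Cst3 at 85.8 CPM, against 131 CPM of Cst3 in the 43 cells. Cells outside the gate lacked class II or Cst3 by rule, so these gaps are a description.

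The other 7 cells had 4 to 13 T cell UMIs and a median of 9172 UMIs. They were 4 KO-DOX and 3 WT-CTRL cells. Summed over them, Cd74 had 15882 CPM, H2-Aa 5225 CPM, Cst3 1029 CPM and Fscn1 808 CPM, beside the T cell genes Cd3e at 348 CPM and Tcf7, a factor of naive T cells, at 253 CPM. Few cells carried those sums: 2 cells had 222 and 377 class II UMIs, and 1 had 41 of the 51 Fscn1 UMIs. In 3 others there were 7, 7 and 11 class II UMIs, 2 or 3 Cst3 UMIs and no Fscn1. Tyrobp and Flt3 each had UMIs in 4 of the 7. As a sum the 7 cells had transcripts of both kinds, though not each cell did beyond the gate genes, and the 43 cells had T cell genes with little dendritic RNA beyond the gate genes and Cd74. Whether a T cell was attached to a dendritic cell in any of these droplets was not tested, and no doublet caller was run.

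Depth moved with entry into the gate. Among barcodes with T cell transcripts, none of 4591 with 500 to 2000 UMIs passed, and 2 of 25128 passed with 2000 to 4000. With 15000 to 30000 UMIs 19 of 442 passed (4.30%), and with 30000 or more 23 of 167 passed (13.8%, interval 8.94 to 19.9%). The share with at least 2 Cst3 UMIs was 0.457% in the shallowest and 79.6% in the deepest of these barcodes. When each gated cell was thinned to 2000 UMIs and gated again, 3 of the 50 cells with T cell transcripts still passed. Of the cells without, 23 of 37 deep enough to thin did so: 13 of 21 Fscn1 cells, 3 of 3 Xcr1 or Clec9a cells and 7 of 13 others, classes that are described next.

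**Figure D2:**
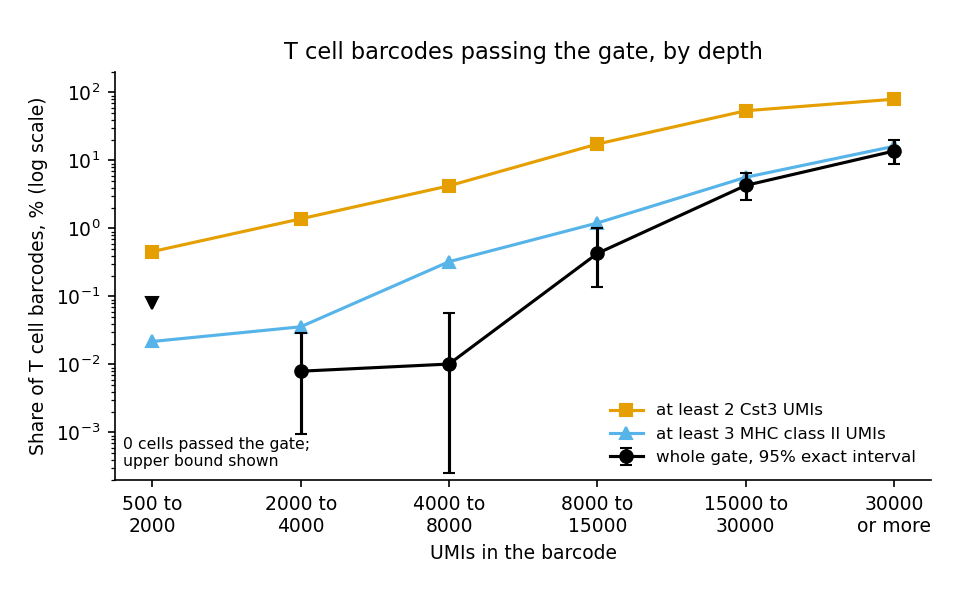
Share of barcodes with T cell transcripts (y axis, percent, log scale) that met the Cst3 limit, the class II limit and the whole gate, by total UMIs of the barcode (x axis); bars are exact 95% intervals and the triangle is the upper bound where no cell passed. The whole gate was met by 13.8% of the barcodes with 30000 or more UMIs.

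Effector genes were among those furthest above T cells of at least 15000 UMIs outside the gate in the cells with T cell transcripts. Cd74 came first (2398 against 179 CPM, a log2 ratio of CPM + 10 of 3.67), then Ifitm1 (3.17) and Gzma (2.93). Gzma, a granzyme of killer cells, had 1703 CPM in KO-DOX, 1346 in KO-CTRL, 3169 in WT-DOX and 2336 in WT-CTRL. The deep T cells of those libraries had 241, 338, 326 and 256 CPM. Gzma was thus higher in all 4 libraries, although in KO-DOX 3 of 12 cells carried it. Ifitm1, an interferon-induced membrane protein gene, had 1291, 1317, 1529 and 881 CPM in the libraries in that order, against 89.8, 180, 129 and 99.9 CPM in deep T cells. Batf3, a transcription factor needed by type 1 dendritic cells and also used by activated T cells, had 116, 140, 146 and 96.1 CPM against 30.9, 25.4, 12.5 and 16.8 CPM. Among CD8 cells alone (40 of the 43 cells with many T cell UMIs, and the 287 deep CD8 T cells), Gzmb had 547 against 136 CPM and the receptor Klrk1 207 against 62.9 CPM. Tcf7 went the other way, with 38.6 against 364 CPM. The cycle genes differed less, with Mki67 at 539 against 441 CPM and Top2a at 898 against 655 CPM.

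The 40 cells without T cell transcripts were sorted into 3 classes by limits chosen after the values were seen. There were 22 cells with at least 3 UMIs of Fscn1, 3 with at least 3 UMIs of Xcr1 and Clec9a together, and 15 others. Near the Fscn1 limit lay 1 cell with 2 UMIs and 1 with 3, and 15 cells had none. T cell genes were not wholly absent, with 89 UMIs of the 17 listed genes, or 279 CPM, and Themis at 0. Of 16 B cell genes 12 were at 0, among them Igkc and Pax5. The other 4 had 35 UMIs, of which Ighm had 28 and Cd79b 2. Those of natural killer and innate lymphoid cells were all at 0 (7 of 7), and the neutrophil genes S100a8 and S100a9 as well. Of 12 macrophage genes 7 were at 0, among them Fcgr1, Mertk and Siglec1, with 42 UMIs in all.

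The Fscn1 cells carried the migratory programme. All 21 genes of the migratory list had UMIs in them. T cells also had UMIs of each of these genes except Il12b, so detection alone does not set the Fscn1 cells apart. Of 1496 genes measured, 315 (21.1%) stood at least 2 log2 units above T cells, a count that the choice of cells helps to make. Fscn1, which chose them, had 5266 CPM with 3 to 180 UMIs per cell. Outside these cells it was rare, in 37 of 35906 T cells (median 3021 UMIs) and 13 of 559 deep T cells. Over the 40 cells, 28 had at least 3 UMIs of Ccr7, Fscn1, Ccl22, Cacnb3, Socs2 and Il4i1 together (70.0%, interval 53.5 to 83.4%), and 62.2% did so when thinned to 2000 UMIs. Unthinned, the 22 Fscn1 cells met this limit by the rule that chose them, since Fscn1 counts toward it. T cells met that limit in 29.9% of cells, or 16.1% when thinned, because Ccr7 counts toward it. Ccr7 had 2510 CPM with UMIs in 21 of the 22 cells, against 601 CPM in T cells, which also use this receptor. Cacnb3, a calcium channel subunit, had 714 CPM, the cytokine signalling inhibitor Socs2 826 CPM and the amino acid oxidase Il4i1 554 CPM. T cells had 0.824, 3.76 and 0.219 CPM of these. Among genes of the cytoskeleton, Marcks had 970 CPM and Marcksl1 2121 CPM, against 2.74 and 37.9 CPM in T cells. Tmem123 had 3128 CPM with UMIs in all 22 cells, and the tetraspanin Cd63 1141 CPM. Epsti1, an interferon-induced gene, had 5548 CPM in 21 cells, with 2574 CPM in KO-DOX, 5916 in KO-CTRL, 7860 in WT-DOX and 7317 in WT-CTRL.

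Chemokines were abundant and uneven. Ccl5, which draws T cells and other leukocytes, had 8746 CPM pooled, and 2821 CPM in KO-DOX, 14826 in KO-CTRL, 12141 in WT-DOX and 8787 in WT-CTRL. Single cells held much of it, since the top cell had 88.4% of the Ccl5 UMIs in WT-DOX, which had 2 Fscn1 cells, and 64.3% in WT-CTRL. Ccl22, a ligand of Ccr4 on regulatory and helper T cells, had 602 CPM with UMIs in 16 cells, against 0.0588 CPM in T cells. By library it had 363, 818, 1053 and 466 CPM. Its close relative Ccl17 had 42.6 CPM in 4 cells. Cxcl16, the ligand of Cxcr6, had 538 CPM in 17 cells. Among cytokines Il15, which sustains CD8 T cells, had 325 CPM, Il12b 213 CPM, Ebi3 197 CPM and Il27 85.3 CPM. Il12a, Il10 and Il23a had no UMI in the 187633 UMIs of these cells, where 3 UMIs would be 15.99 CPM.

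Costimulation followed the same uneven pattern. Cd40, which receives help from T cells, had 570 CPM, but 65 of its 107 UMIs came from 1 WT-DOX cell. Cd80 and Cd86, the ligands of Cd28, had 309 and 469 CPM, and 1 WT-CTRL cell supplied 31 of 58 and 38 of 88 UMIs. The adhesion gene Icam1 had 442 CPM in 18 cells and Icosl, the ligand of Icos, 192 CPM in 14. Cd83, a surface protein of mature dendritic cells, had 490 CPM. Of 18 genes of the NF-kB response 17 stood above their T cell level, with no limit on the size of the gap. Among the other pathway lists that count ran from 10 of 34 (type I interferon response) to 15 of 19 (cytoskeleton and migration). No share over all genes stands beside it, so it is not read as particular to the NF-kB list. Nfkbia, the pathway's inhibitor, had 2899 CPM, Rel 1066 CPM and Relb 869 CPM, against 1630, 323 and 75.9 CPM in T cells. Tnfaip3, which also restrains the pathway, was the exception at 506 against 756 CPM. Pdcd1lg2, which encodes PD-L2, had 37.3 CPM in 5 cells, against 640 CPM of Cd274 in 17.

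Of 14 class II loading genes 8 had a lower level in the Fscn1 cells than in both other dendritic classes, and 2 a higher one. Of 14 class I presentation genes 11 had a higher level than in both, and 2 a lower one. No share over all genes stands beside these counts, and the Xcr1 or Clec9a class held 3 cells. In the remaining pathway lists, those above both ran from 8 of 34 (type I interferon response) to 12 of 18 (NF-kB response). Those below both ran from 1 of 18 (NF-kB response) to 5 of 19 (cytoskeleton and migration). H2-Aa had 3475 CPM, against 13510 CPM in the Xcr1 or Clec9a cells and 10809 CPM in the 15 others. Ciita, the master regulator of class II transcription, had 31.98, 176 and 237 CPM in those classes. H2-DMb1, which loads peptide onto class II, had 48.0, 615 and 836 CPM. B2m, the light chain of class I, had 10968, 3341 and 4408 CPM, and the heavy chain gene H2-K1 2047, 762 and 785 CPM. H2-Aa chose the cells, and no test stands behind these orders.

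**Figure D3:**
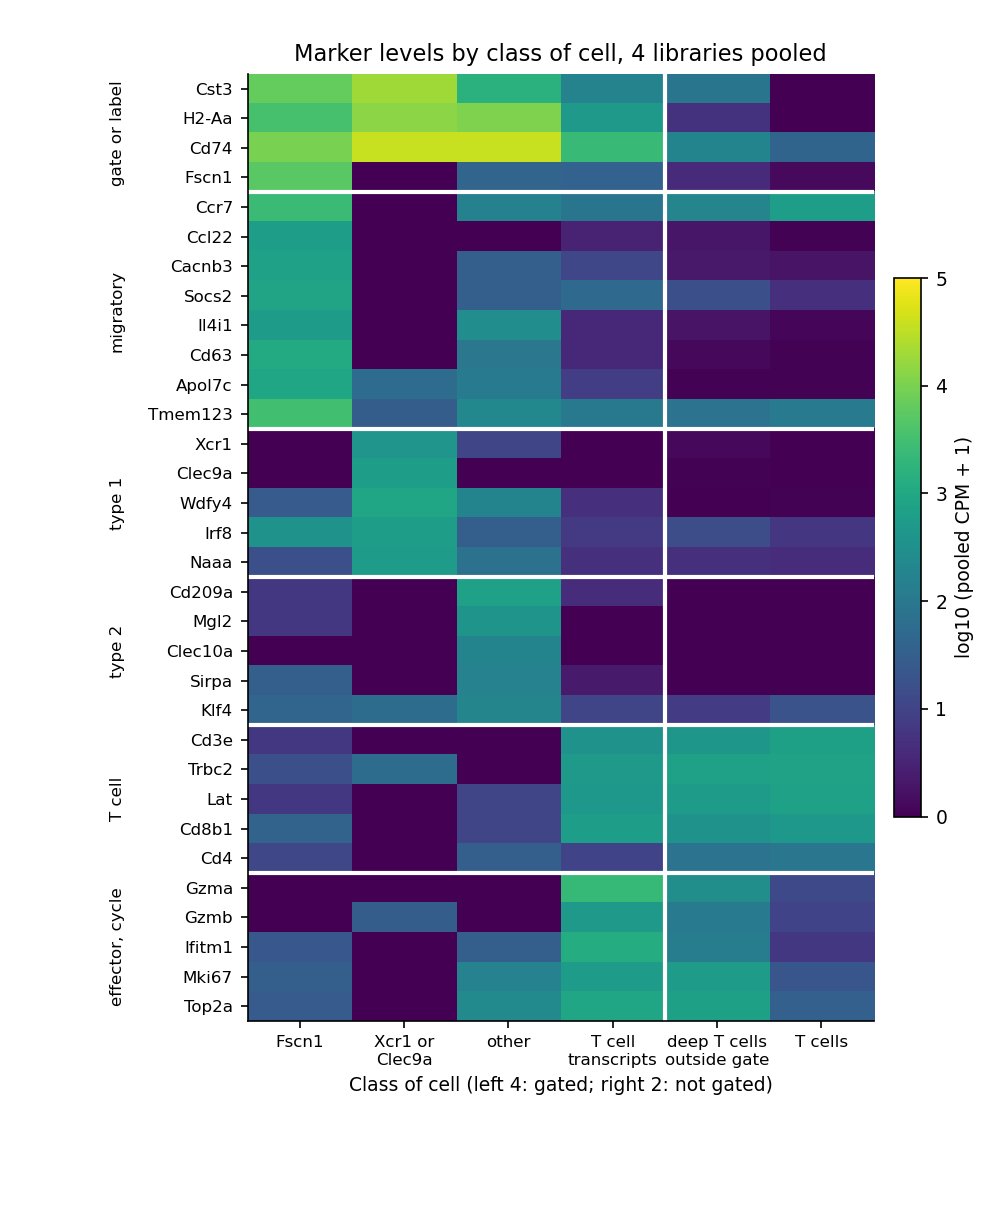
Pooled level of each marker (rows, grouped by role) in the 4 classes of gated cells and in 2 sets of T cells outside the gate (columns), as log10 of CPM + 1. Among the gated classes, Fscn1 cells hold the migratory block and the 3 Xcr1 or Clec9a cells the type 1 block. The 15 others have some type 2 markers, in fewer than all cells. The cells with T cell transcripts hold the effector and cycle blocks and the T cell rows except Cd4. Cd3e, Trbc2, Lat and Cd4 are higher still in both sets outside the gate, and Cd8b1 is lower there.

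The 3 Xcr1 or Clec9a cells, 1 from KO-CTRL and 2 from WT-CTRL, had much of the type 1 profile without the migratory one. Besides the 2 genes that chose them (410 and 615 CPM), they had Irf8, a factor that type 1 cells depend on, at 645 CPM. Wdfy4, which is needed for cross-presentation, was at 850 CPM, and Batf3 at 234 CPM. Naaa and Ppt1, lysosomal enzyme genes, had 586 and 1172 CPM. Not every gene of the type 1 list was present. Over all 40 cells without T cell transcripts Itgae was at 0, Tlr3 at 3.14 CPM and Gcsam at 6.28 CPM. Cxcl9, which recruits Cxcr3-bearing T cells, had 615 CPM, and Cd8a, found on resident type 1 cells, 352 CPM. Ccr7, Fscn1, Ccl22 and Ccl5 had no UMI among 34124, where 3 UMIs would be 87.9 CPM. Cst3 was at 19546 CPM and Cd74 at 38682 CPM.

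The 15 other cells had high class II, myeloid genes and some type 2 markers. Cd209a, a lectin gene, had 733 CPM in 7 cells, Mgl2 382 CPM in 4, Sirpa 165 CPM in 7 and Clec10a 176 CPM in 3. The single KO-CTRL cell held 28 of the 37 Mgl2 UMIs. The Fscn1 cells had 5.33, 5.33 and 31.98 CPM of the first 3 and no Clec10a UMI. Tyrobp and Fcer1g, signalling adaptors of myeloid receptors, had 1683 and 1435 CPM, and Spi1, the factor PU.1 of the myeloid lineage, 465 CPM. The inflammatory cytokine gene Il1b had 248 CPM, against 5.33 CPM in Fscn1 cells, and Ifitm3 909 against 63.95 CPM. Ccr7 had 155 CPM in 4 cells and Ccl22 no UMI. Lyz2, a gene of macrophages and monocytes, had 351 CPM, but 30 of its 34 UMIs lay in 1 KO-DOX cell. The plasmacytoid gene Siglech had 31.0 CPM in 2 cells, and Cd207 of Langerhans cells had none. Type 2 markers were thus spread over fewer than all cells of this class, and it is called by its rule.

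The classes were spread unevenly over the libraries. Fscn1 cells numbered 7 in KO-DOX, 6 in KO-CTRL, 2 in WT-DOX and 7 in WT-CTRL. The other class numbered 9, 1, 5 and 0 in that order, so 14 of its 15 cells came from the doxorubicin libraries. Cells with T cell transcripts numbered 12, 9, 15 and 14, or 42.9%, 52.9%, 68.2% and 60.9% of the gated cells. Each of the 4 exact intervals of those shares overlapped the others, with bounds of 24.5 and 62.8% in KO-DOX and 45.1 and 86.1% in WT-DOX. With 1 library a group, the treatment and the library cannot be told apart.

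**Figure D4:**
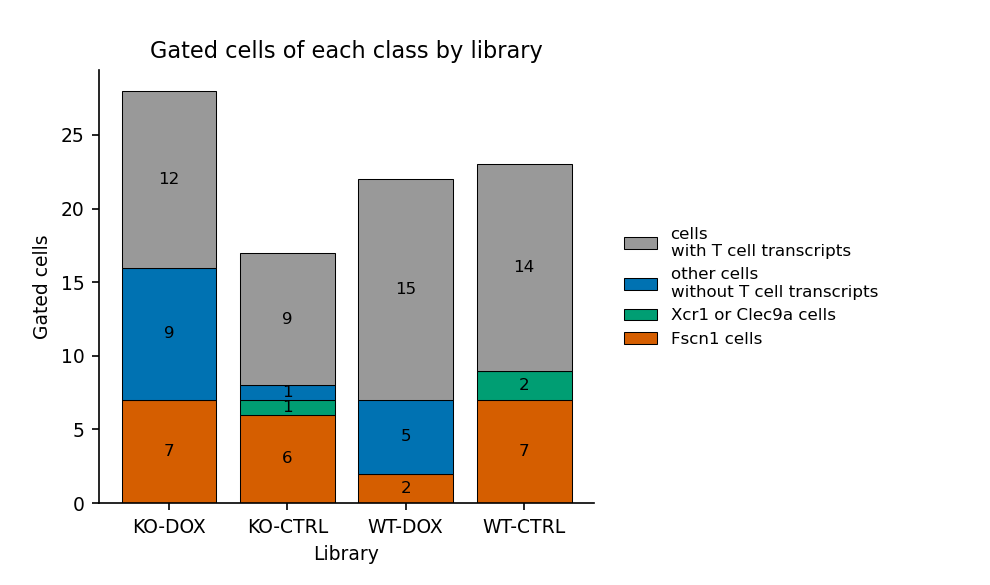
Number of gated cells of each class (y axis) in each library (x axis), as stacked bars with the count in each block. KO-DOX has 16 cells without T cell transcripts, KO-CTRL 8, WT-DOX 7 and WT-CTRL 9.

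Cd274 lies on chromosome 19 from 29367455 to 29388095, plus strand, in the GRCm38 annotation. Over all gated cells it had 69 UMIs in KO-DOX, 32 in KO-CTRL, 30 in WT-DOX and 46 in WT-CTRL. These were 180, 85.98, 60.0 and 79.4 CPM. KO-DOX was thus the highest library, with a ratio of 3.01 to WT-DOX (exact conditional interval 1.93 to 4.78) and of 2.10 to KO-CTRL (1.36 to 3.30). The ratio of KO-CTRL to WT-CTRL was 1.08 (0.667 to 1.74) and that of WT-DOX to WT-CTRL 0.755 (0.460 to 1.22). These intervals cover counting error only and say nothing of the spread between mice.

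KO-DOX was not the highest once cells with T cell transcripts were set aside. Among cells without T cell transcripts Cd274 had 57 UMIs in KO-DOX (11 of 16 cells), 25 in KO-CTRL (6 of 8), 25 in WT-DOX (5 of 7) and 37 in WT-CTRL (5 of 9). The levels were 463, 378, 502 and 464 CPM, with overlapping exact Poisson intervals. KO-DOX to WT-DOX then gave a ratio of 0.922 (0.567 to 1.54), KO-CTRL to WT-CTRL 0.816 (0.471 to 1.39), KO-DOX to KO-CTRL 1.22 (0.753 to 2.05) and WT-DOX to WT-CTRL 1.08 (0.625 to 1.85). The intervals of all 4 ratios held 1, and they were too wide to show that the groups were alike. In the Fscn1 cells the levels were 660, 561, 702 and 646 CPM. In cells with T cell transcripts they were 46.2, 22.9, 11.1 and 18.0 CPM, from 12, 7, 5 and 9 UMIs. In KO-DOX 1 cell had 7 of those 12 UMIs. Without the top cell of each library the levels were 20.2, 20.3, 9.36 and 15.1 CPM.

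A few cells held most of the Cd274 UMIs. Among cells without T cell transcripts the top cell had 20 of 57 UMIs in KO-DOX, 6 of 25 in KO-CTRL, 18 of 25 in WT-DOX and 29 of 37 in WT-CTRL. Without that cell the levels were 340, 325, 204 and 139 CPM. The median cell had 1.5, 4, 2 and 1 UMIs. Detection after thinning every gated cell to 2000 UMIs was 26.9%, 23.5%, 19.0% and 17.4% of cells, and unthinned 57.1%, 70.6%, 45.5% and 56.5%. T cells had Cd274 as well, at 75.2 CPM, and the deep T cells at 50.6 CPM. Because the deleted exons were not given in the sources used here, a Cd274 count in KO libraries does not check the deletion.

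**Figure D5:**
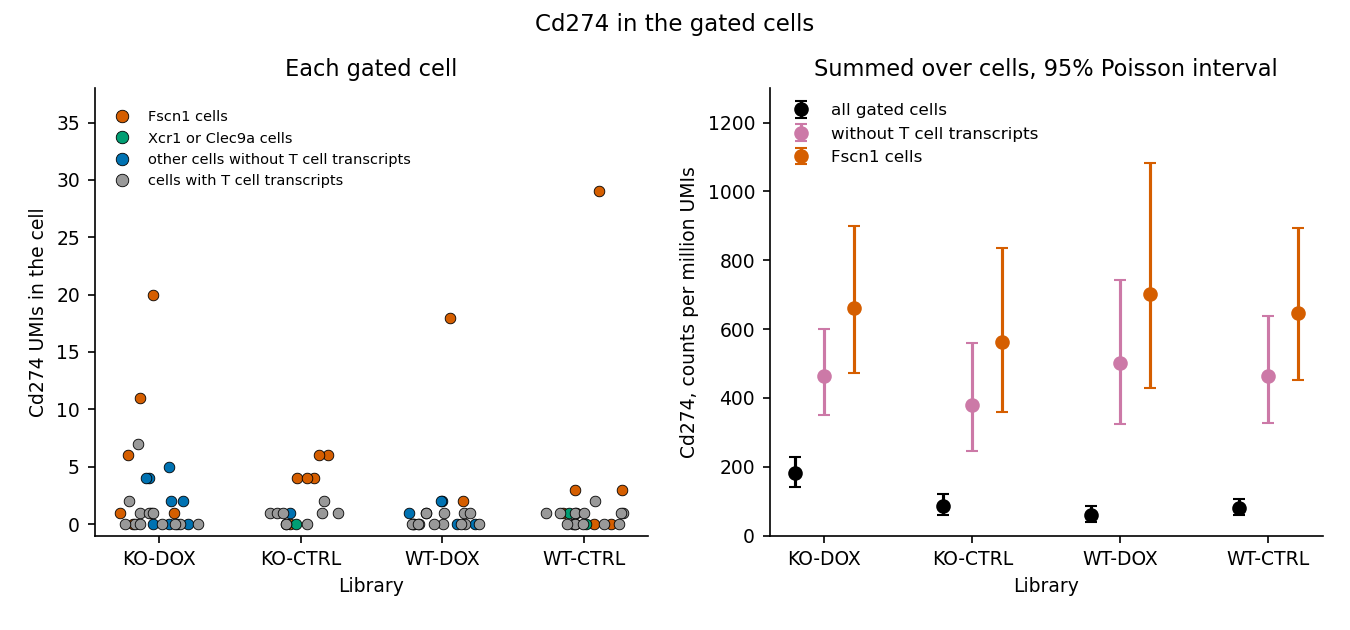
Left, Cd274 UMIs in each gated cell (points, coloured by class) by library; right, Cd274 in CPM summed over all gated cells, over cells without T cell transcripts and over Fscn1 cells, with exact 95% Poisson intervals. All gated cells put KO-DOX highest at 180 CPM, and among cells without T cell transcripts the 4 libraries lie between 378 and 502 CPM with overlapping intervals.

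Genes found in the same gated cells as Cd274 were led by Mprip, present in 51.0% of the 51 cells with Cd274 and 10.3% of the 39 without. Tcf4, a transcription factor gene, was found in 60.8 and 20.5%, the adenosine receptor gene Adora2a in 52.9 and 15.4%, Ogfrl1 in 47.1 and 10.3%, and Cd83 in 66.7 and 30.8%. This is likeness by detection over cells that differ in depth and class.

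Contrasts between libraries over all gated cells compared genes with at least 100 CPM in either library and UMIs in at least 10 cells of the higher one. A gene counted as past the limit when its log2 ratio of CPM + 10 was at least 1 and the exact Poisson intervals lay apart. No p-value is given. Only KO-DOX had 10 or more cells without T cell transcripts (16, against 8 in KO-CTRL, 7 in WT-DOX and 9 in WT-CTRL). A gene found in those cells alone could therefore be counted only through KO-DOX, and only as higher there. The excess of higher over lower genes in KO-DOX can thus in part be set by the rule. Between KO-DOX and WT-DOX, 127 of 1781 genes were higher (7.13%) and 31 lower (1.74%). Those higher were led by H2-DMb1 (173 against 11.99 CPM, log2 ratio 3.05), Fcer1g (423 against 46.0 CPM, 2.95) and Ctsh, a lysosomal protease (235 against 24.0 CPM, 2.85). Those lower were led by Zbed5, which had no UMI in KO-DOX against 606 CPM in WT-DOX and stood apart in all kept WT-DOX cells. Also lower were the mitochondrial gene mt-Cytb (23.5 against 102 CPM, -1.74), Ly6c2, a surface protein of effector CD8 cells (41.8 against 242 CPM, -2.28), Klrk1 (73.2 against 244 CPM, -1.61) and the histone Hist1h1a (175 against 516 CPM, -1.51). Cells with T cell transcripts made up 42.9% of the gated cells in KO-DOX and 68.2% in WT-DOX. Their share of the UMIs, which set the CPM, was larger. They held 259572 of 382574 gated UMIs in KO-DOX, 306102 of 372181 in KO-CTRL, 450555 of 500309 in WT-DOX and 499587 of 579369 in WT-CTRL. The part of these cells in the counts was not tested.

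In that contrast over all gated cells some lists gave more calls than the background and others did not. Among cells without T cell transcripts, where 463 genes could be counted, none of the members of the 10 pathway lists passed. How many of those members were among the 463 genes is not given here. Of all 463, 4.75% were higher, so this 0 cannot be read as a loss. Over all gated cells, 5 of 6 measured genes of class II loading were higher (median log2 ratio 1.49, against -0.10 over all genes). Cd74, Ctss and Ifi30 were among them. In the NF-kB response 6 of 9 were higher (median 1.05), with Rel, Relb and Tnfaip3 among them. In the BCL2 family 4 of 5 were higher (1.30). Among them were Mcl1 and Pmaip1, while Bcl2a1b and Bcl2a1d are near-identical copies whose reads can be misassigned. None of 10 class I genes passed (-0.09), and of 10 T cell genes 1, Cd8b1, was lower (-0.29). In KO-DOX against KO-CTRL, 64 of 1685 genes were higher (3.8%) and 10 lower (0.593%). Tyrobp had 520 against 118 CPM (2.05), Fcer1g 423 against 85.98 CPM (2.18) and the metallothionein gene Mt1 159 against 642 CPM (-1.94). Class II loading had 4 of 6 higher in this pair (median 1.11). Over the 10 pathway lists together 11 members passed in this pair, and 3 did so among cells without T cell transcripts. In those cells 35 of 495 genes passed (7.07%), and the number of list members among the 495 is not given here.

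The other contrasts moved fewer genes. Between KO-CTRL and WT-CTRL 5 of 1672 genes were higher (0.299%) and 16 lower (0.957%), with Tnfrsf4, the receptor OX40, at 105 against 31.1 CPM (1.48). The histone Hist1h2an was at 231 against 597 CPM (-1.33). Between WT-DOX and WT-CTRL 6 of 1712 genes were higher (0.35%) and 25 lower (1.46%). Zbed5, which stood apart in all kept cells of WT-DOX, led the first at 606 CPM against no UMI. Il2ra, the interleukin-2 receptor alpha chain, was at 37.98 against 209 CPM (-2.19) and the kinase gene Camk1d at 390 against 1667 CPM (-2.07). Over all kept cells Camk1d was at 1403 against 1444 CPM. KO-DOX and WT-CTRL each serve in 2 of the contrasts, as do KO-CTRL and WT-DOX, so these are not independent.

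Within the cells without T cell transcripts, 2 contrasts had enough cells to count genes. Between KO-DOX and WT-DOX 22 of 463 genes were higher (4.75%) and none lower. Fabp5, a lipid chaperone, had 2683 against 402 CPM (2.71), Ifitm2 1041 against 322 CPM (1.66) and Fos, an immediate early gene, 2415 against 1045 CPM (1.20). Between KO-DOX and KO-CTRL 35 of 495 were higher (7.07%) and none lower. Ifitm3 had 650 against 15.1 CPM, with 51.2% of its UMIs in 1 cell. Ifitm2 had 1041 against 75.7 CPM (3.62), Fos 2415 against 636 CPM (1.91) and Gpx1, a glutathione peroxidase, 2537 against 1180 CPM (1.10). KO-DOX had 16 cells here against 7 and 8, and the limit of 10 cells in the higher library could be met by KO-DOX alone, so no gene could be counted as lower. Its share of the other class was 9 of 16 cells, against 5 of 7 in WT-DOX and 1 of 8 in KO-CTRL. The 10 monocyte and neutrophil genes summed to 415 CPM in these cells of KO-DOX, against 30.3 CPM in KO-CTRL, 40.2 CPM in WT-DOX and 113 CPM in WT-CTRL, with Csf3r at 0 in all. Much of the KO-DOX sum was Lyz2 in 1 cell, so it does not describe all 16 cells. The 12 macrophage genes summed to 228, 90.8, 100 and 37.6 CPM in KO-DOX, KO-CTRL, WT-DOX and WT-CTRL. The part of either in these counts was not tested.

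Iron and lipid peroxide genes, which set the sensitivity of a cell to ferroptosis, were examined because the series title names that form of death in dendritic cells. Over all gated cells none of the 13 measured genes passed in KO-DOX against WT-DOX (median log2 ratio 0.05). None of 12 passed in KO-CTRL against WT-CTRL (0.05). In KO-DOX against KO-CTRL none of 13 passed (-0.04), and in WT-DOX against WT-CTRL none of 12 (0.16). Of all genes measured, at most 7.13% were higher and 1.74% lower in any of these contrasts. A 0 among 12 or 13 genes is thus not read as particular to this list. Cells with T cell transcripts held 1515816 of the 1834433 gated UMIs, so these counts say little of dendritic cells alone. Among cells without T cell transcripts Fth1, the ferritin heavy chain, had 3610 CPM in KO-DOX, 2300 in KO-CTRL, 4683 in WT-DOX and 1542 in WT-CTRL. Both doxorubicin libraries were higher than both control libraries, with intervals apart (3282 to 3962, 1949 to 2696, 4101 to 5325 and 1281 to 1839 CPM). The classes differed along the same line, since Fth1 had 4254 CPM in the 15 other cells and 2553 CPM in the Fscn1 cells. Within Fscn1 cells alone it had 3267, 1871, 4140 and 1488 CPM, with 2 cells in WT-DOX.

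Other genes of that list did not share this order. Ftl1, the ferritin light chain, had 4406, 5403, 6793 and 3861 CPM in cells without T cell transcripts. Gpx4, the peroxidase that detoxifies lipid peroxides, had 406, 242, 322 and 301 CPM with overlapping intervals. Acsl4, which loads polyunsaturated fatty acids into membranes, had 56.9, 106, 80.4 and 50.1 CPM from 7, 7, 4 and 4 UMIs. Slc7a11, the cystine importer, had 1, 3, 0 and 0 UMIs. At this depth a difference in these last 2 genes was not detectable. Of the p53 targets, which answer DNA damage, Cdkn1a had 447, 257, 804 and 251 CPM and Pmaip1 472, 590, 301 and 175 CPM in the same cells. Cdkn1a was thus higher in WT-DOX than in WT-CTRL with intervals apart (574 to 1095 against 153 to 387 CPM), and in KO-DOX its interval met that of KO-CTRL (337 to 582 against 150 to 412 CPM). Over all gated cells the direction was the same in both pairs, but it was the KO pair whose intervals lay apart. There Cdkn1a had 180 CPM in KO-DOX against 67.2 CPM in KO-CTRL, with intervals apart. It had 130 CPM in WT-DOX against 79.4 CPM in WT-CTRL, with intervals that met. In those cells 2 of 5 measured p53 targets (Cdkn1a and Btg2) were past the limit in KO-DOX against KO-CTRL and none of 4 in WT-DOX against WT-CTRL. Over all genes measured 3.8% were higher and 0.593% lower in the KO pair, and 0.35 and 1.46% in the WT pair. The WT count is near its share over all genes, so the 2 counts are not read as a difference between the genotypes. By class Cdkn1a had 480 CPM in Fscn1 cells and 434 CPM in the others.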

How the data were processed

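Counts of UMIs per gene and barcode were deposited by the authors, 1 matrix for each of 4 libraries, with no cell annotation. The build mm10 is named in the submitters' processing notes, and the aligner and cell caller were not given in the sources used here. All barcodes held at least 500 UMIs. Filters removed 16 barcodes under 300 genes and 5 over 10% mitochondrial UMIs, with some failing both. The total per library was 37754389 to 47081849 UMIs. No doublet caller was run.

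From the counts, the gate, summed CPM, shares and ratios were computed with Python 3.11.15, numpy 2.4.6, scipy 1.17.1 and pandas 2.3.3, and the figures with matplotlib 3.10.9. Exact Poisson, Clopper-Pearson and conditional binomial intervals (95%) cover counting error only. Counts below 3 UMIs in a set are at its floor. Thinning drew 2000 UMIs per cell. With 1 library a group no test was possible, so genes were named by size: at least 1 log2 unit of CPM + 10, at least 100 CPM, UMIs in at least 10 cells of the higher library and intervals apart. The genes named in each direction are the 8 with the greatest log2 ratio past those limits, of which the text gives some. List members, Cd274 with its ligand family, and the 5 genes most often found with Cd274 were also named. Genes outside these, such as those of the class comparisons, were chosen after their values were seen. The code of the size rule was tested on simulated counts, which says nothing of the spread between mice or libraries. Of 338 genes on 24 lists 3 were absent from the matrices. The members and lists were chosen with earlier results of these data known. The classes of the 40 cells and the split of the 50 were added after the values were seen. Positions are from GRCm38.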

Additional observations from a re-analysis of the deposited data

Results flagged for a closer look

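In 3 measures the log2 ratio of the doxorubicin library to its control library had opposite signs in the 2 genotypes. With 1 library a group, the difference between the genotypes was not tested. The gated share of kept cells had a log2 ratio of 1.04 for KO-DOX over KO-CTRL and of -0.0201 for WT-DOX over WT-CTRL. The WT shares were 0.177% and 0.179%, so that pair barely differed. The share of gated cells with T cell transcripts had log2 ratios of -0.30 and 0.16 in the same pairs. The exact intervals of both kinds of share overlapped within each pair, so neither shows a reversal between the genotypes. Cd274 summed over all gated cells had log2 ratios (of CPM + 10) of 0.99 and -0.35. With each gated cell thinned to 2000 UMIs the Cd274 log2 ratios were 0.94 and 0.12. Among cells without T cell transcripts the Cd274 log2 ratios were 0.29 and 0.11, in the same direction in both genotypes.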

How the results depend on the processing

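The gate took 90 cells, 55.6% with T cell transcripts and 61.1% with at least 3 UMIs of 6 migratory genes (Ccr7, Fscn1, Ccl22, Cacnb3, Socs2 and Il4i1). Of T cells, 29.9% met that migratory limit, since Ccr7 is a T cell gene. The profile of all gated cells held 150 genes at least 2 log2 units above T cells. Leaving out each library in turn gave 147 to 151 genes, migratory shares of 57.5 to 66.2% and T cell transcript shares of 51.5 to 61.3%. In the settings tried, 126 values stayed within the limits set for them (the counting interval of the value, or 1.5 times a count) and 64 did not.

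The gate itself held 59 cells with at least 10 class II UMIs and 51 with at least 5 Cst3 UMIs, where the migratory share was 72.5% and the share with T cell transcripts 37.3%. It held 40 cells without those with T cell transcripts (274 profile genes). After thinning every cell to 2000 UMIs, a setting chosen after seeing the data, it held 26, with 278 profile genes and 11.5% with T cell transcripts. The migratory share was 45.6% at 5 marker UMIs and 28.7% when cells were thinned.

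The Cd274 log2 ratio (of CPM + 10) over all gated cells was 1.44 for KO-DOX against WT-DOX, and it turned to -0.11 without cells with T cell transcripts and -0.0874 in Fscn1 cells alone, the second chosen after seeing the data. For KO-DOX against KO-CTRL it was 0.99, and 0.29 and 0.23 in those cells, 0.14 with a limit of 1 Cst3 UMI and 0.0774 with every cell given the same weight. For KO-CTRL against WT-CTRL, which was 0.10, it was negative in 7 of 11 settings (-0.51 to -0.20) and 1.02 with equal weights. For WT-DOX against WT-CTRL, which was -0.35, it was positive in 3 of 11 (0.11 to 0.12): without cells with T cell transcripts, in Fscn1 cells and when cells were thinned. Neither ratio had an interval that left out 1.

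Genes past the size rule numbered 158 for KO-DOX against WT-DOX, 21 for KO-CTRL against WT-CTRL, 74 for KO-DOX against KO-CTRL and 31 for WT-DOX against WT-CTRL. Without cells with T cell transcripts the first and the third were 22 and 35. With a wider B cell exclusion the 4 counts were 346, 58, 144 and 141, with no floor on level 284, 56, 116 and 81, and with at least 200 CPM 72, 5, 31 and 10. A limit of 1 Cst3 UMI gave 89 for the first and 39 for the third. No B cell exclusion gave 46 for the second and 114 for the third. KO-CTRL against WT-CTRL was 33 at 10 class II UMIs, 40 at 5 Cst3 UMIs, 34 with equal weights, 39 in cells with the migratory genes and 35 at a pseudocount of 1. WT-DOX against WT-CTRL was 53 at 10 class II UMIs, 72 with equal weights and 65 with the migratory genes, where KO-DOX against KO-CTRL was 173.

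Members of the 10 pathway lists, counted once each and without the cell type marker lists, that were past the rule numbered 23, 3, 11 and 0 in that order of contrasts. KO-DOX against WT-DOX had 15 with 1 Cst3 UMI, 0 without cells with T cell transcripts and 11 at 200 CPM. Without cells with T cell transcripts 463 genes could be counted in that pair, against 1781 over all gated cells. KO-CTRL against WT-CTRL had 0 at 10 class II UMIs, 1 at 5 Cst3 UMIs, 1 with the wider B cell exclusion, 5 at a pseudocount of 1 and 1 at 200 CPM. KO-DOX against KO-CTRL had 3 with 1 Cst3 UMI, 3 without cells with T cell transcripts, 4 with equal weights, 17 with the migratory genes and 7 at 200 CPM. Without cells with T cell transcripts 495 genes could be counted in this pair, against 1685 over all gated cells. WT-DOX against WT-CTRL had 2 at 10 class II UMIs, 2 at 5 Cst3 UMIs, 5 with the wider B cell exclusion, 3 with equal weights, 3 with the migratory genes and 1 with no floor on level. For all of these the cause was not tested. Filters of 800 genes and 5% mitochondrial UMIs, and median-of-ratios scaling, moved no value past the limits. No paired analysis was possible because each group was 1 library.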
